A study of Homo sapiens with 20 samples.

Results

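The collagen genes were followed through the differentiation of HepaRG cells. They were chosen by name: every array probe whose RefSeq accession maps to a symbol made of COL, a number, A and a number. The array held 55 such probes for 43 genes, of 42405 probes and 35372 genes in all. The naming rule itself uses no measured value, though members and lists were chosen with earlier results of these data known.

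HepaRG cells come from a human hepatoma, and in culture their progenitors give rise to hepatocyte-like and biliary-like cells. Cy3-labelled RNA was hybridised to 20 one-color Agilent arrays, 4 independent biological replicates for each of 5 conditions. D4 cells were progenitors on day 4 after seeding and D15 cells were collected on day 15, both without dimethyl sulfoxide (DMSO), a solvent used to promote hepatic differentiation. D30 - DMSO cells stayed in the same medium until day 30, and D30 + DMSO cells received 2% DMSO from day 15 to day 30. D34 +/- DMSO cells received the same 2% DMSO and were then kept for 4 days without it. All cultures shared a medium with serum, insulin and hydrocortisone. As a model, HepaRG is 1 tumor-derived line.

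Collagens are secreted proteins whose chains wind into a triple helix. Fibrillar collagens (types I, II, III, V, XI, XXIV and XXVII) assemble into the cable-like fibers of interstitial matrix, whereas type IV collagen forms the sheet-like network of basement membranes. In liver, stellate cells and fibroblasts are the best known source of fibrillar collagen, and its build-up is the hallmark of fibrosis. Type IV chains combine in fixed sets, and their genes lie head to head in pairs: COL4A1 with COL4A2, COL4A3 with COL4A4, and COL4A5 with COL4A6. COL18A1 and COL15A1 encode multiplexins, collagens of basement membrane zones, and COL7A1 encodes the chain of anchoring fibrils. FACITs are fibril-associated collagens with an interrupted helix.

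Values are log2 of the processed signal over the 75th percentile of the array, so that 0 is that percentile. They compare one probe between arrays and never a probe with another probe. A gene was called changed between conditions when limma, fitted over 22214 genes, gave it more than a 2-fold difference with a p below 0.005 after Benjamini-Hochberg adjustment. Only such genes are said to rise or fall. Since the RNA comes from whole cultures, fewer cells of a type and less RNA per cell cannot be told apart. Between 61.1% and 74.2% of the spots of an array were well above background, and across genes the lowest and highest correlation between replicate arrays were 0.955 and 0.992. As a check of the labels, 12 of 12 hepatocyte markers rose from D4 to D15, and 9 of 10 proliferation markers fell.

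To pass the filter, a probe had to be well above background throughout at least 1 condition, that is on its 4 arrays. Of the 43 collagen genes, 31 passed. COL1A2, the partner chain of COL1A1 in type I collagen, was not well above background on any of the 20 arrays. The other genes that did not pass were COL2A1, COL6A3, COL6A6, COL11A1, COL15A1, COL17A1, COL19A1, COL22A1, COL25A1, COL6A2 and COL6A5. All 6 type IV chains passed, against 8 of 11 fibrillar genes, 8 of 10 FACITs and 1 of 5 type VI chains. Several passed narrowly. COL3A1, the chain of type III collagen, passed through D15 alone and COL4A3 through D4 alone. COL5A3 was above background on 0 of the 4 D4 arrays by that measure.

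**Figure D1:**
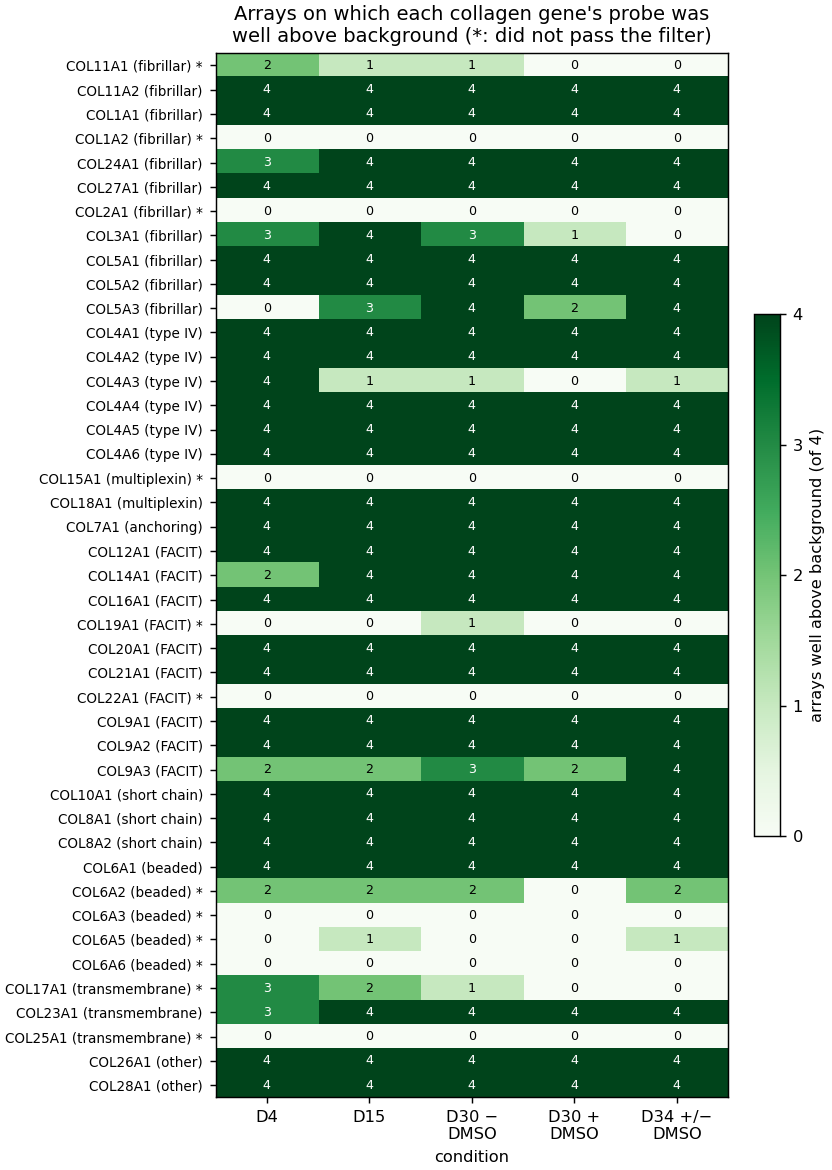
Number of arrays, of 4 per condition (columns), on which each of the 43 collagen genes (lines, with their class) was well above background. All 6 type IV chains passed the filter, COL1A2 stands at 0 in every condition, and COL3A1 goes from 4 arrays at D15 to 0 at D34 +/- DMSO.

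The F-test over the 5 conditions asked for a 3-fold range of the condition means and a p below 0.001 after Bonferroni adjustment. By it 3 of the 31 collagen genes changed, beside 5.37% of all genes tested. These were COL4A1 (NM_001845), COL4A2 (NM_001846) and COL4A6 (NM_033641), 3 type IV chains. Their highest and lowest condition means lay 6.17-fold, 4.41-fold and 5.59-fold apart, with Bonferroni-adjusted p-values of 4.01e-05, 1.00e-07 and 0.000334 in limma. No fibrillar gene passed. COL5A1, a chain of type V collagen that regulates fibril diameter, had the widest range of all 31, 12.8-fold, but missed the limit (limma, Bonferroni-adjusted p = 0.00366).

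**Figure D2:**
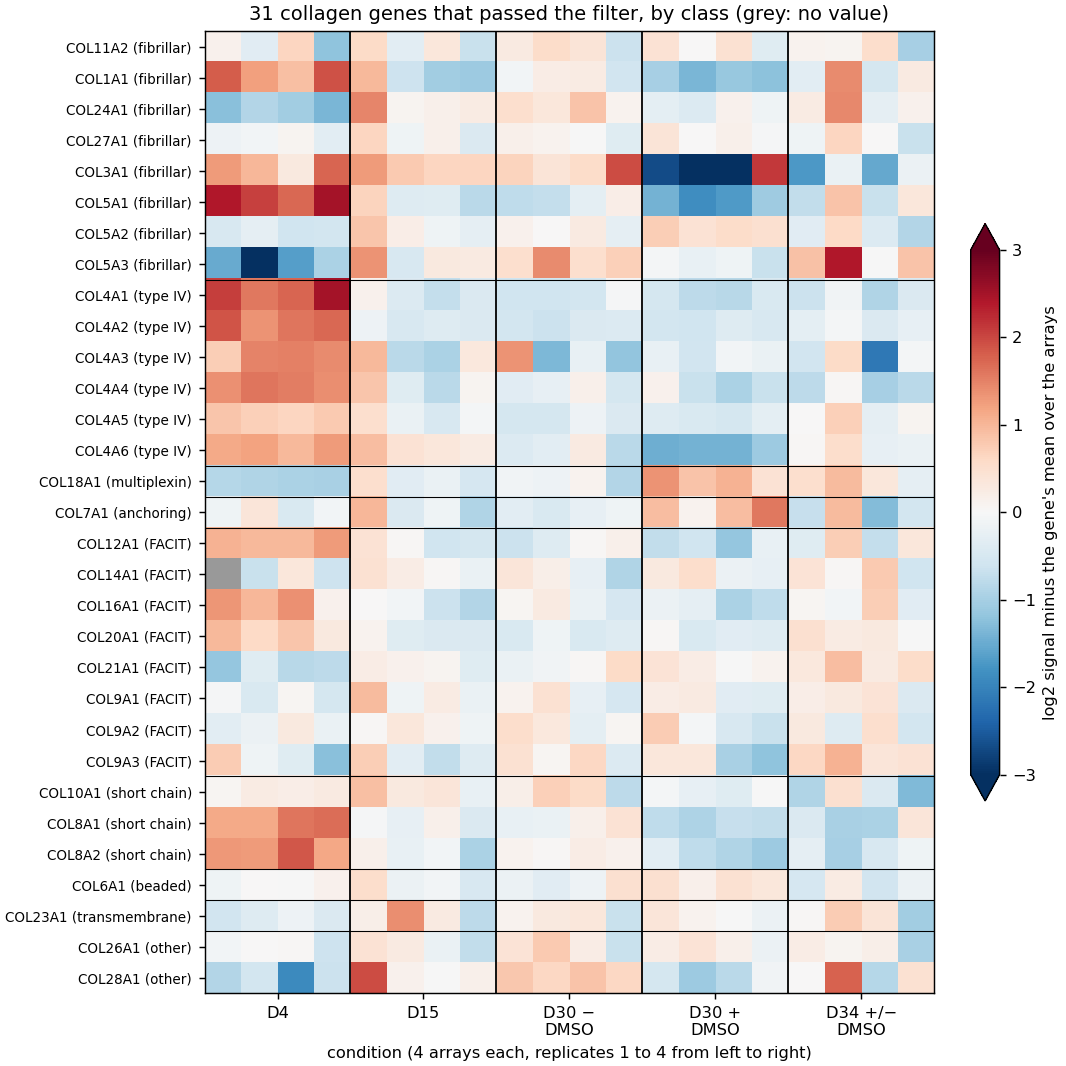
Log2 signal of the 31 collagen genes that passed the filter, minus each gene's mean over the arrays, on every array (columns grouped by condition, lines grouped by class). D4 stands apart for COL4A1, COL4A2, COL4A4, COL5A1, COL8A1 and COL8A2, and COL4A6 is lowest on the D30 + DMSO arrays.

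The stretch between COL4A1 and COL4A2 is shown because both genes fell from D4 to D15. Those of the other pairs are shown because COL4A4, and with DMSO COL4A6, passed the test while their partners did not. Sequences are RefSeq promoter windows of build GRCh38.p14, plus strand, 5′ to 3′ towards the second gene, and stop at its start site. Capitals mark a CCAAT box (CCAAT) or a GC box (GGGCGG), on either strand. The COL4A1 and COL4A2 starts on chromosome 13 are separated by 126 bases, all of which are printed. For the others, with 418 and 379 bases between starts, the 250 bases before COL4A3 and before COL4A5 are printed.
COL4A1 to COL4A2, chr13:110307158-110307283: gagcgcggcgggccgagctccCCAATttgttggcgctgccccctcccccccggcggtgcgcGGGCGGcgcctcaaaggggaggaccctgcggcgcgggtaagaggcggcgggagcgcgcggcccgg
COL4A4 to COL4A3, chr2:227164374-227164623: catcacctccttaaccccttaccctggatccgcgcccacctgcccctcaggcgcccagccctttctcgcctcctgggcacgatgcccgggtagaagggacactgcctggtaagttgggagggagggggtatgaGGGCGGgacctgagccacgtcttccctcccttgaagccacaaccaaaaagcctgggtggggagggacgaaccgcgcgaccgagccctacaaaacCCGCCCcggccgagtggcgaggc
COL4A6 to COL4A5, chrX:108439588-108439837: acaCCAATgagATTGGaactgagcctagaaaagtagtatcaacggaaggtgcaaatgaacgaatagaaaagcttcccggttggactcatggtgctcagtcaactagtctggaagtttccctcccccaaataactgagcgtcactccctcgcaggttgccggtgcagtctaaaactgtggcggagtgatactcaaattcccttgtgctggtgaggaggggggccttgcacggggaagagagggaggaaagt

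The COL4A1 and COL4A2 stretch holds 1 CCAAT box and 1 GC box, which 21.1% and 34.6% of all 35116 promoter windows hold within the same length. That before COL4A3 holds 2 GC boxes and that before COL4A5 holds 2 CCAAT boxes. Over windows of 250 bases, 42.6% hold a GC box and 32% a CCAAT box. All these shares count windows with at least 1 such box, and the share with 2 was not counted. None of the 3 stretches holds TATAAA, on either strand. G and C make up 80.2%, 66.4% and 51.2% of their bases. These are matches of letters only.

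From D4 to D15, as the progenitors reach confluence and begin to differentiate, 11 of the 31 collagen genes changed, 9 falling and 2 rising. Over all genes tested 9.49% changed, 3.7% downwards and 5.79% upwards. The median change was -0.03 for the collagens and 0.04 for all genes.

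All 6 type IV chains had lower means at D15, and 3 of them fell past the threshold. COL4A1 measured 0.31, -0.19, -0.03 and 0.71 on the D4 arrays and -1.65, -2.19, -2.48 and -2.20 at D15. It fell by 2.33 on the log2 scale (SE 0.22, limma adjusted p = 2.5e-07), 5.03-fold. COL4A2 stood at 4.21, 3.67, 3.95 and 4.05 at D4 and at 2.19, 1.86, 1.94 and 1.89 at D15, a fall of 2.00 (SE 0.13, limma adjusted p = 2.49e-09). For both chains every D4 array lay above every later array of any condition. COL4A4, which joins COL4A3 and COL4A5 in specialised basement membranes, went from 0.23, 0.47, 0.41 and 0.27 to -0.30, -1.49, -1.94 and -1.06. It fell by 1.54 (SE 0.30, limma adjusted p = 0.000805). COL4A5 and COL4A6 changed by -0.80 and -0.65 and did not pass the 2-fold limit. COL4A3 changed by -1.41 with an adjusted p of 0.0908 in limma, and only 1 D15 array was well above background.

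The fibrillar genes split, with 2 falling, 2 rising and 4 that did not pass. COL5A1 (NM_000093) measured 3.27, 2.92, 2.58 and 3.36 at D4 and 1.54, 0.47, 0.49 and 0.06 at D15, and fell by 2.39 (SE 0.36, limma adjusted p = 5.11e-05). Its other probe fell by 1.99 (limma adjusted p = 0.00191). COL1A1 (NM_000088), the major chain of type I collagen, measured -0.92, -1.50, -1.83 and -0.83 at D4 and -1.76, -3.35, -3.78 and -3.83 at D15. It fell by 1.91 (SE 0.43, limma adjusted p = 0.00254), with D15 replicate 1 inside the D4 range. That call was lost without D4 replicate 1, 2 or 4 or without D15 replicate 2, 3 or 4, with a highest adjusted p of 0.012 in limma. COL24A1, a minor fibrillar chain, rose by 1.63 (SE 0.32, limma adjusted p = 0.000857), from between -4.70 and -4.23 to between -3.26 and -1.88. With normexp background correction its change was 0.83, under 2-fold (limma adjusted p = 0.00162). COL5A3, a further type V chain, was never well above background at D4, so its fold is not a measured one. Against the lowest signal well above background at D4 it was 2.4-fold higher at D15, which is not a firm lower limit. Its fitted rise was 2.25 (limma adjusted p = 0.00277), and was not called without D4 replicate 2 or 3 or without D15 replicate 1, 3 or 4 (1.73 to 2.57). With a floor of 10 it was 0.77 (limma adjusted p = 0.181) and with normexp background correction 0.45 (limma adjusted p = 0.0283). Neither was called and both were smaller than 2.4-fold.

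Outside these classes, the paired short-chain collagens of type VIII, known from vessel walls and corneal basement membrane, both fell. COL8A1 went from 3.57, 3.58, 4.04 and 4.12 to 2.42, 2.21, 2.60 and 2.00, a fall of 1.52 (SE 0.25, limma adjusted p = 0.000129). COL8A2 went from 0.18, 0.15, 0.74 and 0.02 to -0.97, -1.36, -1.22 and -2.09, a fall of 1.68 (SE 0.24, limma adjusted p = 2.61e-05). Neither pair of groups overlapped. Of 8 FACITs that passed, 2 fell, by 1.23 for COL12A1 (limma adjusted p = 0.00456) and by 1.35 for COL16A1 (limma adjusted p = 0.00238). Both are less firm. The COL12A1 call was lost without any one of 12 arrays (-1.43 to -1.09), among them each D4 array and D15 replicates 2, 3 and 4, and for COL16A1, whose call was lost without D4 replicate 1, 2 or 3 or without D15 replicate 3 or 4, another probe changed by -0.20 (limma adjusted p = 0.8).

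Within each of the 2 scan sessions, and within each of the 3 slides that held both conditions, all 11 genes kept the sign of their change. They were called on these same arrays, so the signs are no independent check, and the second session held 1 D4 array. With the slide as a block, all but COL12A1 remained called. COL4A1 was -1.95 in the first session and -3.05 in the second, and COL1A1 -1.14 and -2.97. The median change was -1.48 for the 6 type IV chains and 0.17 for the 8 fibrillar genes, a difference of -1.65. Some of these genes passed the filter only through the condition where they were high, so these medians describe the genes that passed.

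**Figure D3:**
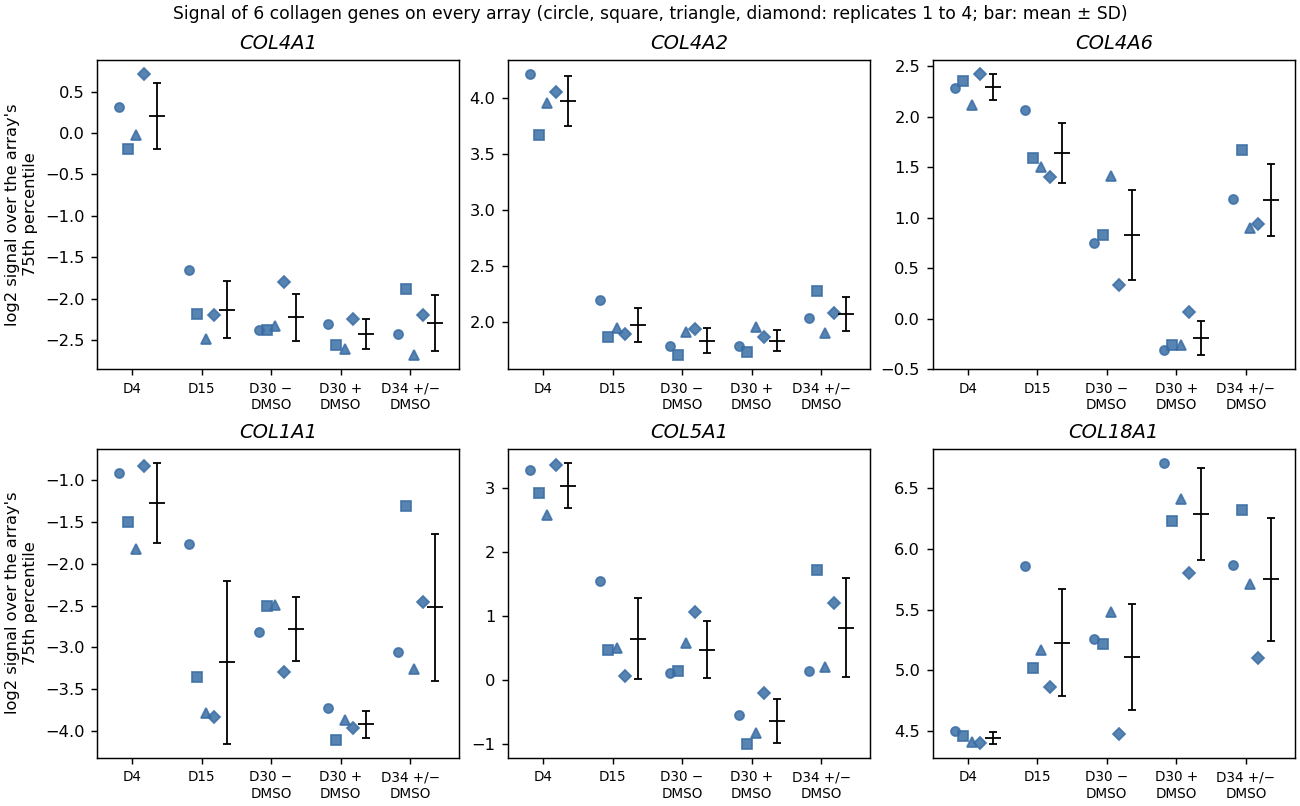
Log2 signal over the 75th percentile of the array (vertical axes, each with its own range) for 6 collagen genes in the 5 conditions, with 1 symbol per replicate and bars for mean ± SD (n = 4). COL4A1 and COL4A2 drop once, from D4 to D15, while COL4A6, COL1A1 and COL5A1 have their lowest means at D30 + DMSO and COL18A1 its highest.

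Between D15 and D30 - DMSO, with 15 more days in the same medium, no collagen gene changed in limma's fit. Only 1 gene of 22214 did so (0.0045%). At an unadjusted p below 0.05, 1 of 31 passed, and the methods' t-test called 0. COL4A6 had the largest difference, -0.81 (limma adjusted p = 0.55).

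Addition of DMSO was asked of cultures of the same age, D30 + DMSO against D30 - DMSO. Among the 31 genes 1 rose, COL18A1, and 1 fell, COL4A6, beside 5.92% of all genes tested that changed, 1.73% upwards and 4.18% downwards. The median change was -0.20 for the collagens and 0.04 for all genes, and 10 of the 31 genes had a higher mean with DMSO.

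COL18A1 (NM_030582), whose carboxy-terminal fragment is endostatin and which hepatocytes are known to express, measured 5.26, 5.22, 5.48 and 4.48 without DMSO. With DMSO it measured 6.71, 6.23, 6.41 and 5.80. At D34 +/- DMSO it measured 5.87, 6.32, 5.71 and 5.10. The groups with and without DMSO at D30 did not overlap, and the rise was 1.18 (SE 0.27, limma adjusted p = 0.00412), 2.27-fold. It was 1.15 in the first scan session and 1.63 in the second. That second session held 1 D30 - DMSO array, replicate 4, the lowest of its group. Without that array the rise was 0.97, under 2-fold. With the slide as a block the rise was 1.43 (limma adjusted p = 0.000114). Leaving out any one of 14 arrays ended the call, among them D30 - DMSO replicates 1, 2 and 4, D30 + DMSO replicates 1, 2 and 3 and 8 arrays of other conditions, with a lowest change of 0.97 and a highest adjusted p of 0.018 in limma. Linear levels of 12 hepatocyte markers were summed, in units of the 75th percentile. The sum lay between 2500 and 2580 without DMSO and between 2730 and 4440 with it. Of the 12, 2 were called higher, CYP3A4 and CYP2E1. The sum of 8 biliary-like and progenitor markers lay between 162 and 169 without DMSO and between 119 and 172 with it. Of these, SOX9 was called higher, and SPP1 and ITGB4 lower. Such sums weigh the brightest probes most, and their part in the rise of COL18A1 was not tested.

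COL4A6 measured 0.75, 0.83, 1.41 and 0.33 without DMSO and -0.31, -0.26, -0.26 and 0.06 with it. It fell by 1.02 (SE 0.21, limma adjusted p = 0.00195), just past 2-fold, and again the groups did not overlap. With the slide as a block the change was -0.80, under 2-fold (limma adjusted p = 0.00199). The call was also lost without D30 - DMSO replicate 2 or 3 or without D30 + DMSO replicate 1, 2 or 3 (-1.19 to -0.83). In the first session it was -1.28 and in the second -0.43. Its head-to-head partner COL4A5 measured 0.95, 0.94, 1.32 and 1.05 without DMSO and 1.08, 1.03, 0.94 and 1.19 with it, a change of -0.01 (95% interval -0.42 to 0.41). On each array, COL4A6 minus COL4A5 lay between -0.72 and 0.09 at D30 - DMSO and between -1.39 and -1.13 at D30 + DMSO, with no overlap. This pair was chosen after its values were seen, and the difference has no test.

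For the pair that had fallen by D15, no change passed. COL4A1 measured -2.38, -2.38, -2.33 and -1.80 without DMSO and -2.30, -2.56, -2.61 and -2.24 with it, a change of -0.20 (95% interval -0.67 to 0.27). COL4A2 changed by -0.01 (95% interval -0.28 to 0.26). Both intervals lie within 2-fold in either direction.

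No fibrillar gene passed the threshold, though several had lower means. COL1A1 measured -2.82, -2.50, -2.49 and -3.30 without DMSO and -3.73, -4.11, -3.87 and -3.96 with it. The groups did not overlap, but the change of -1.14 (SE 0.43) had an adjusted p of 0.0749 in limma. It was -0.67 with the slide as a block, and -1.32 and -0.61 in the first and second scan session. COL5A1 measured 0.11, 0.14, 0.57 and 1.05 against -0.55, -1.0, -0.83 and -0.21, a change of -1.11 (SE 0.36, limma adjusted p = 0.0361), also without overlap. The other COL5A1 probe changed by -0.73 (limma adjusted p = 0.286). COL5A2, the usual partner of COL5A1 in type V collagen, changed by 0.51 (95% interval -0.03 to 1.05). COL5A1 minus COL5A2 lay between 2.20 and 3.53 without DMSO and between 0.79 and 1.53 with it, a pair again chosen after its values were seen and without a test. COL3A1 changed by -2.79 (SE 0.87, limma adjusted p = 0.0316), with -4.87, -5.17, -4.99 and -3.59 without DMSO and -8.23, -9.12, -9.03 and -3.42 with it. Of the latter only replicate 4 was well above background. Without that array the change was -4.14 and passed (limma adjusted p = 5.51e-06). It also passed with the deposited matrix (-3.21, limma adjusted p = 0.000724) and in the first scan session alone (-3.66, limma adjusted p = 0.00031). Each of these calls rests on D30 + DMSO signals that were not measured above background.

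Elsewhere in the family, COL7A1 changed by 1.17 (SE 0.42, limma adjusted p = 0.0625) and COL8A2 by -0.89 (limma adjusted p = 0.0119), neither passing. In all, 10 of the 31 genes did not overlap between the groups, 7 lower and 3 higher with DMSO, beside 25.1% of all genes. Some genes depend on the probe. On all 4 arrays with DMSO, and on 0 of those without it, a second COL20A1 probe stood well above background. Against the lowest signal well above background it was 3.93-fold higher with DMSO, which is not a firm lower limit. With every probe tested it was called, but it passed the filter through D30 + DMSO alone, the group where it was high. For that reason the call is not read as a test of the change. The brighter COL20A1 probe changed by 0.07. For COL11A2, 1 of 3 probes rose by 1.73 (limma adjusted p = 0.00052), another changed by 0.99 and the brightest did not pass (limma adjusted p = 0.997).

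**Figure D4:**
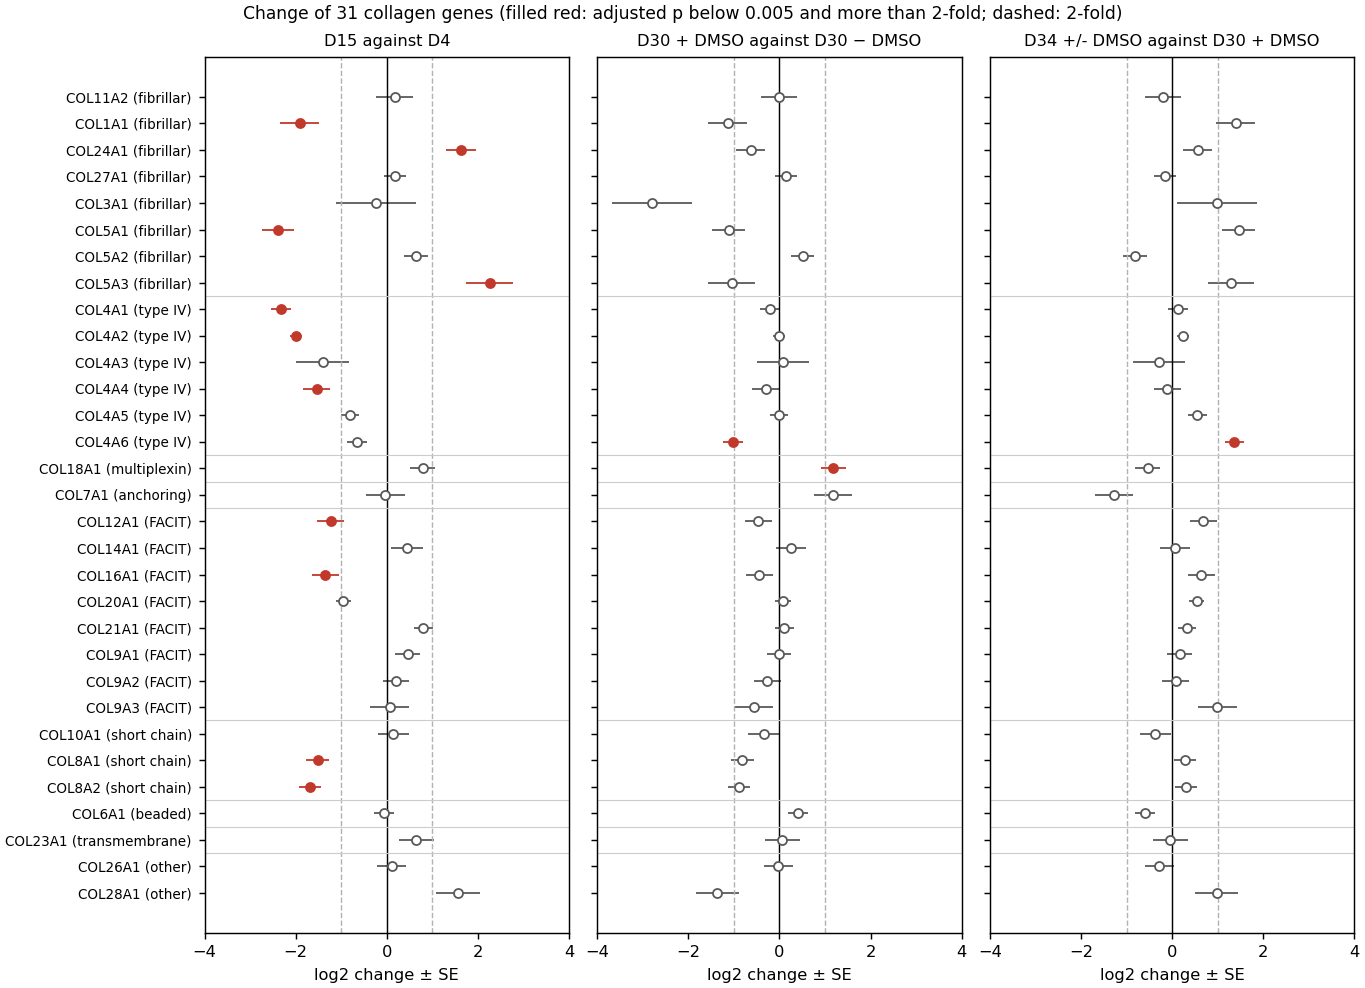
Log2 change ± SE from limma for the 31 collagen genes (lines, by class) in 3 comparisons, with called genes filled and the 2-fold limits dashed. From D4 to D15 11 genes were called, with DMSO addition COL18A1 and COL4A6, and after DMSO removal COL4A6.

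Removal of DMSO was read from D34 +/- DMSO against D30 + DMSO. The cells after removal were also older, and no culture kept in DMSO to that age was measured. The part of the added days in culture was therefore not tested, here or wherever removal is named below. Of the 31 collagens, 1 rose, COL4A6, and none fell, beside 7.06% of all genes that changed, 4.96% upwards and 2.1% downwards. COL4A6 measured 1.18, 1.67, 0.90 and 0.94 after removal, above all D30 + DMSO arrays. It rose by 1.37 (SE 0.21, limma adjusted p = 0.000106), 2.58-fold, and remained called without any one array. Its change was 1.53 in the first session and 1.04 in the second. COL5A1 measured 0.13, 1.72, 0.20 and 1.20 and its difference of 1.46 (SE 0.36) just missed the threshold, with an adjusted p of 0.00566 in limma. With the slide as a block it passed (limma adjusted p = 0.00286). The other COL5A1 probe changed by 1.06 and was not called (limma adjusted p = 0.0896). COL1A1 measured -3.06, -1.31, -3.26 and -2.46 and changed by 1.39 (SE 0.43, limma adjusted p = 0.0246). D34 +/- DMSO replicate 2 was the highest array of its group for both.

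COL4A1 and COL4A2 changed by 0.13 (95% interval -0.34 to 0.60) and 0.24 (95% interval -0.03 to 0.51) on removal. COL7A1 changed by -1.28 (limma adjusted p = 0.0362) and COL18A1 by -0.54 (limma adjusted p = 0.184), neither passing. The median change was 0.24 for the 31 genes and -0.07 for all genes. In 6 of the 31 genes the groups did not overlap, all higher after removal, beside 23.9% of all genes. Addition and removal share the D30 + DMSO arrays, so opposite signs in the 2 comparisons are not independent.

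Set against the younger D30 - DMSO cells, cells after removal differed in no collagen gene in limma's fit, beside 1.52% of all genes tested. At an unadjusted p below 0.05, 6 of 31 passed, and the methods' t-test called 0. COL4A6 differed by 0.35 and COL1A1 by 0.25 (limma adjusted p = 0.521 and 0.936). COL3A1 was not well above background on any D34 +/- DMSO array, and at D30 - DMSO on 3 arrays. Against the lowest signal well above background it was 2.93-fold lower at D34 +/- DMSO, which is not a firm lower limit. Its fitted change was -1.81 (95% interval -3.64 to 0.03, limma adjusted p = 0.338).

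The comparison of basement membrane with fibrillar collagens was summarised by class medians and by COL4A1 relative to COL1A1. With DMSO addition, the median change was -0.10 over the 6 type IV chains and -0.84 over the 8 fibrillar genes, a difference of 0.74. Over genes well above background on all 20 arrays the difference was -0.20. With removal the medians were 0.19 and 0.78, a difference of -0.59, and 0.40 over the same brighter genes. For both comparisons the sign thus depended on the filter.

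The log2 signal of COL4A1 minus that of COL1A1 has a meaning only as it changes between arrays. Its mean was 1.47 ± 0.26 (SD, n = 4) in D4 cells. In D15 cells it was 1.05 ± 0.66, and 0.55 ± 0.65 in D30 - DMSO cells. It was 1.49 ± 0.20 at D30 + DMSO and 0.23 ± 0.55 at D34 +/- DMSO. The comparison for removal of DMSO, in which age also differed, had the largest change, -1.27. Its two-sided exact permutation p was 0.0286, the smallest that 4 against 4 arrays allow. Adjusted over the 5 comparisons, that p was 0.143. Within the scan sessions it was -1.27 and -1.24, the second from 1 D34 +/- DMSO array. Addition changed it by 0.94 (exact permutation p = 0.0857, adjusted 0.214), with 1.26 in the first session and -0.01 in the second, where D30 - DMSO had 1 array. None of the 5 comparisons passed after adjustment.

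**Figure D5:**
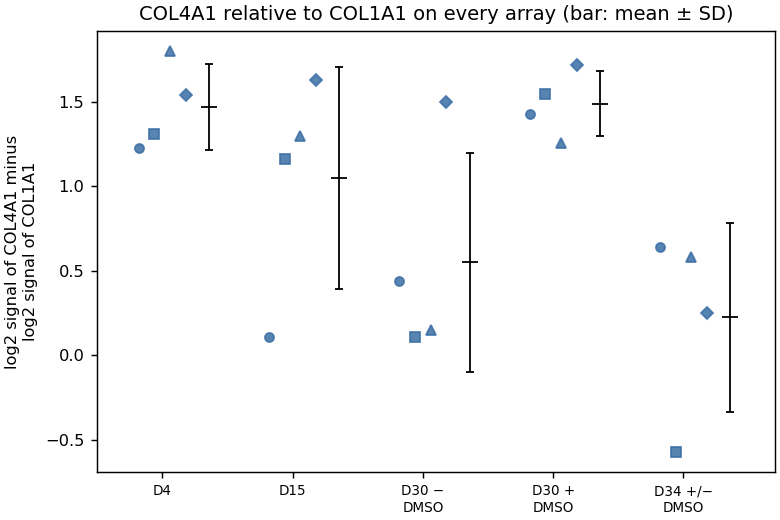
Log2 signal of COL4A1 minus log2 signal of COL1A1 on every array (vertical axis) in the 5 conditions, with 1 symbol per replicate and bars for mean ± SD (n = 4). The D30 + DMSO arrays lie close together, between 1.26 and 1.72, and all above the 4 D34 +/- DMSO arrays, which lie between -0.57 and 0.64.

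The other genes of the collagen pathway were read in the same comparisons. Of all genes tested, 3.7% fell and 5.79% rose from D4 to D15. With DMSO 4.18% fell and 1.73% rose, and after removal 2.1% fell and 4.96% rose. Of the biosynthesis and folding genes, 23 of 25 were tested. From D4 to D15, 4 of them fell and none rose: the prolyl hydroxylase subunits P4HA1 (-1.04) and P4HA2 (-1.36), the lysyl hydroxylase PLOD2 (-1.73) and the galactosyltransferase COLGALT1 (-1.14). With DMSO 2 fell and none rose. P3H2, a prolyl 3-hydroxylase known to act on basement membrane collagen, measured 4.62, 4.50, 4.55 and 3.91 without DMSO and 2.73, 2.75, 2.75 and 2.62 with it. It fell by 1.69 (SE 0.15, limma adjusted p = 4.14e-07). At D34 +/- DMSO it was still 1.12 below D30 - DMSO on the log2 scale (a change of -1.12, limma adjusted p = 0.000101), the only one of the pathway genes called between those conditions. CRTAP, which works with prolyl 3-hydroxylase 1, was called lower with DMSO and higher after removal, but with DMSO 1 of 4 arrays was well above background and its fold is not a measured one. The call with DMSO was lost in 8 of 33 settings, among them leaving out D30 - DMSO replicate 4 or D30 + DMSO replicate 1, 2 or 3, and with normexp the change was -0.35 (limma adjusted p = 0.184). The median of the 23 was -0.26 from D4 to D15, 0.14 with DMSO and -0.05 after removal.

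Among processing and cross-linking genes 7 of 15 were tested. PCOLCE, which enhances the trimming of fibrillar procollagen, measured 0.72, 0.60, 0.78 and 2.26 without DMSO and -1.64, -1.73, -1.83 and -1.40 with it. It fell by 2.74 (SE 0.30, limma adjusted p = 2.86e-06) and rose by 2.28 after removal (limma adjusted p = 1.53e-05). TGM2, a cross-linking transglutaminase, fell by 1.31 with DMSO, a call that was lost without any one of the 8 arrays compared. ADAMTS2, a procollagen peptidase, fell from D4 to D15 as well (limma adjusted p = 0.00216).

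Of 10 collagen receptors 7 were tested. LAIR1, an inhibitory collagen receptor known from leukocytes, measured -1.10, -1.19, -1.49 and -1.38 without DMSO and -3.32, -3.41, -3.89 and -4.04 with it. It fell by 2.38 (limma adjusted p = 2.3e-07) and rose by 2.57 after removal (limma adjusted p = 6.8e-08). DDR1, a receptor kinase for collagen, fell by 1.19 with DMSO, a call lost without D30 - DMSO replicate 4 or D30 + DMSO replicate 1 or 2 (to -0.98) and with only the arrays compared. From D4 to D15 the integrin chains ITGA11 and ITGB1 and the endocytic receptor MRC2 fell, MRC2 by 2.76.

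Of the basement membrane partners 7 of 9 were tested. From D4 to D15 SPARC fell (-1.68), while SMOC1 rose (2.67), the only pathway gene called higher there. With DMSO 2 fell, SPARC (-1.16) and FBLN1 (-1.46). With normexp SPARC changed by -0.63 and was not called. The FBLN1 call was lost in 8 of 34 settings, among them leaving out D30 - DMSO replicate 4 (-1.09) or D30 + DMSO replicate 1, 2 or 3. After removal 3 rose, the network linker NID1 by 1.29, the perlecan gene HSPG2 by 1.62 and FBLN1 by 1.29, the last a call lost without any one of 17 arrays. Averaged over its probes, HSPG2 changed by 0.88 and was not called. None fell. Of the fibril partners 9 of 12 were tested. From D4 to D15 LUM (-2.28), POSTN (-5.01) and THBS1 fell and none rose. With DMSO 3 fell, and the same 3 rose after removal. DCN, which coats fibrils, measured 2.34, 2.75, 2.67 and 3.63 without DMSO and -0.65, 0.28, 0.06 and -0.18 with it, and fell by 2.97 (SE 0.33, limma adjusted p = 3.4e-06). LUM fell by 2.68 and POSTN by 3.20 (with 2 of 4 arrays well above background, and -1.40 and not called with normexp), and after removal the 3 rose by 2.97, 2.43 and 4.29. The median of these 9 genes was -1.88 with DMSO, against 0.04 for all genes, and 1.16 after removal, against -0.07.

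Of 12 markers of stellate cells, fibroblasts and smooth muscle 7 were tested. With DMSO and after removal 3 of the 7 passed, beside 5.92% and 7.06% of all genes tested. These 3 were DCN, LUM and POSTN, the same genes counted above as fibril partners. The other 4 did not pass in either comparison: ACTA2 (-0.53 with DMSO and 0.87 after removal), TAGLN (-0.12 and 0.40), DES (-0.20 and 0.11) and RGS5 (-0.24 and -0.15). PDGFRA, PDGFRB, THY1, LRAT and NGFR did not pass the filter. The summed linear level of the 7, in units of the 75th percentile, lay between 29.7 and 44.6 at D4, 11.2 and 16.7 at D15, 4.13 and 4.96 at D30 + DMSO, and 10.9 and 21.1 at D34 +/- DMSO. At D30 - DMSO its median was 12.7 and its highest value 19.9. The summed level of 10 proliferation markers lay between 5.3 and 8.53 at D30 + DMSO and between 35.4 and 55.6 at D34 +/- DMSO. Their part in the collagen results was not tested.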

How the data were processed

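Per the file headers, the authors scanned 1-color arrays and deposited Feature Extraction output, in which the processed signal of a spot is its intensity after subtraction of background and detrending, array by array (version 10.7.1.1 in the headers, 10.7.3.1 in the submitters' processing notes). Their deposited matrix holds log2 values, which for 21535 probes compared matched the log2 processed signal apart from 1 baseline per probe and array shifts of at most 0.113.

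Here, control spots and spots marked as outliers were left out, spots averaged per probe, signals scaled to the 75th percentile of the array, floored at 1 and taken to log2. The filter described above kept 26531 probes, which were named through RefSeq accessions, and each gene was read from its probe of highest mean. COL14A1 lacks a value at D4 replicate 1. No collagen spot was saturated.

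One model with 5 condition means was fitted over 20 arrays with limma 3.58.1 in R 4.3.3. Thresholds follow the methods of the study, with limma in place of its t-test and analysis of variance. Arrays lay on 4 slides in 2 scan sessions, each holding several conditions. The second session held 1 array each of D4, D30 - DMSO and D34 +/- DMSO, so its values rest on few arrays. The fit was tested on simulated data of 21991 genes for DMSO addition. It called 2 of 50 genes changed 1.5-fold, 33 of 50 changed 3-fold, 45 of 50 changed 6-fold, and 1 unchanged gene. The simulated noise was independent between arrays, without slide or session effects, so these rates need not hold for the real arrays. For a probe not well above background in a whole condition, the bright group was compared with the lowest signal well above background of any probe. Where the probe's own signal was higher, that was used. Some probes not well above background have higher signals, so such a fold is not a firm lower limit. Named genes are COL4A1, COL1A1, COL4A2, COL1A2, COL3A1, every collagen called in any test, and up to 4 called genes per pathway list and comparison of DMSO addition or removal; others named, with COL4A5, COL5A2 and second probes, were chosen after their values were seen. Members and lists were chosen with earlier results of these data known.

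Alternatives were quantile normalization, normexp correction with an offset of 50 (on median intensities), the deposited matrix, a floor of 10, no or a stricter filter, means over probes, every probe tested, slide or replicate as a block, only the arrays compared, an adjusted p below 0.05, the methods' t-test, a wider basement membrane class and leaving out each array. The scan session as a block and the first session alone were added after seeing the data. The number of arrays limits the precision.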

Additional observations from a re-analysis of the deposited data

Results flagged for a closer look

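In 4 of 75 groups of 4 arrays tested for the named collagens and the COL4A1 to COL1A1 ratio, 1 array stood far from the others by Dixon's test. Chance marks about 1 in 20 groups. COL24A1 at D15 was -1.88 in replicate 1, with the next array at -3.09. COL3A1 at D30 + DMSO was -3.42 in replicate 4, with the next at -8.23, and this array alone was well above background. COL4A1 at D30 - DMSO was -1.80 in replicate 4, with the next at -2.33. COL4A6 at D30 + DMSO was 0.06 in replicate 4, with the next at -0.26. All 4 arrays lay above the rest of their group.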

How the results depend on the processing

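No called value changed sign, while the class difference, which has no test, did so for addition and removal under settings given below. Among results on counts, class medians and the COL4A1 to COL1A1 ratio, 176 of 209 values under other settings stayed within their spread (counts within 1.5 times), and so did 291 of 320 values with 1 array left out. Counts of collagens called over the 5 conditions (3) became 5 with normexp, 6 at an adjusted p below 0.05 and 0 in the first scan session alone. From D4 to D15 the count (11) became 7 without a filter, 6 with only the arrays compared, 5 in the first session and 3 by the methods' t-test. For addition (2) it was 1 with normexp, with only the arrays compared, with the session as a block and in the first session, 4 at an adjusted p below 0.05 and with every probe tested, and 0 by the methods' t-test. For removal (1) it was 2 without a filter, with the stricter filter and with the session as a block, 4 with the slide as a block and at an adjusted p below 0.05, and 0 by the methods' t-test. The methods' t-test with at most 4 arrays a side pools no spread across genes. Type IV minus fibrillar medians from D4 to D15 (-1.65) became -1.21 with normexp and -1.27 with COL7A1 and COL18A1 added. For addition (0.74) they became 0.07 with normexp, 0.35 with a floor of 10, -0.20 with the stricter filter and 0.48 with the slide as a block. For removal (-0.59) they became -0.29 with quantile normalization, 0.09 with normexp, 0.01 with a floor of 10, -0.37 without a filter, 0.40 with the stricter filter, -0.77 with the wider class and -0.81 in the first session. The cause was not tested.

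With 1 array left out, counts ran from 2 to 4 over the 5 conditions, 7 to 11 from D4 to D15 (7 without D4 replicate 2, D15 replicate 3 or D15 replicate 4), 0 to 3 for addition (0 without D30 - DMSO replicate 2) and 1 to 3 for removal (3 without D34 +/- DMSO replicate 2). They stayed at 0 in both other comparisons. Class differences ran from -1.93 to -1.31, -0.43 to -0.05, 0.5 to 0.8, -0.73 to -0.31 (the last without D30 + DMSO replicate 2) and -0.09 to 0.27 in the order of the comparisons, where -0.09 came without D34 +/- DMSO replicate 4. Ratio changes ran from -0.61 to -0.11, -0.81 to -0.3, 0.79 to 1.26, -1.4 to -1 and -0.47 to -0.01. Calls for COL4A1, COL4A2 and COL8A1 from D4 to D15 held in 34 of 34 settings. The calls for COL5A1, COL4A4, COL8A2 and COL24A1 also held without any one array, but other settings ended each of these. The first session alone lost 6 of the 11 calls from D4 to D15: COL1A1 (-1.14), COL5A1 (-1.92), COL12A1 (-0.77), COL4A4 (-1.26), COL24A1 (1.84) and COL5A3 (2.65), and both calls for addition.

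The labels tie no replicate number to a shared culture, and not every same-numbered pair deviated together, so the numbers were not taken to pair the arrays. Deviations of 40 such pairs had a median correlation of 0.274 (27 over 0.1, lowest -0.327), against -0.169 for other numbers, and 16 of 20 arrays correlated best with their own number, a hint from the data. All 44 pairs on the same slide were over 0.1 (median 0.387, lowest 0.117). With the replicate block, 2 collagens were called over the 5 conditions, 11 from D4 to D15, 2 for addition, 1 for removal and 0 in both other comparisons, and no collagen's call between a pair of conditions changed. Dim probes limit COL3A1, COL4A3 and COL5A3, which were not well above background in whole conditions.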
